A study of Mus musculus with 244 samples.

Results

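The cells described here were macrophages of regressing atherosclerotic plaque that listed Hilpda, the gene of a small lipid droplet protein, at 1 RPKM (reads scaled by transcript length and library size) or above. A gene is called listed in a cell at that level. They numbered 60 of 113 regression cells in which 1000 genes or more were listed, in a series of 241 cells (244 libraries). They were described against the other 53 regression cells. The cells were chosen by their Hilpda RPKM, so its level is no result. The 5 members nearest the threshold listed it at 1.01, 2.34, 3.76, 4.53 and 10.7 RPKM, and of the other cells 1 stood at 0.441 RPKM and 52 at 0. A threshold of 10 RPKM would have moved 4 cells.

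The donors of all arches were Apoe-/- mice, which lack apolipoprotein E, after 16 weeks on a diet high in fat. Baseline cells came from the aortic arches of such donors. For the regression group, diseased arches had been grafted into wild-type recipients kept on chow and were collected after 3 days. Arches were digested enzymatically, CD45+ CD11b+ F4/80+ cells were sorted, and single cells were captured on a microfluidic chip, 1 library per cell. A regression graft can hold cells of the donor and of the recipient, and the labels do not tell them apart. Apoe was listed in 59 of 60 Hilpda-listing and 53 of 53 other regression cells, and in 2 of 15 Hilpda-listing and 7 of 110 other baseline cells. The labels name no animal, age or sex. Each class is therefore 1 sample, and its differences come without replicates and without tests.

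Hilpda is a target of the hypoxia-inducible factor HIF-1, a transcription factor whose alpha subunit (Hif1a) is hydroxylated by the Egln enzymes when oxygen is ample and is then destroyed through the Vhl ubiquitin ligase. Stabilised HIF-1 raises genes of glucose uptake, glycolysis and angiogenesis, and inflammatory signals can stabilise it in macrophages as well. The Hilpda protein binds and inhibits the triglyceride lipase encoded by Pnpla2, so that lipid droplets are kept, and lipid-filled macrophages lie in the poorly oxygenated depth of plaques.

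HIF-1 binds the core motif ACGTG or GCGTG. The 250 bases before annotated gene starts (RefSeq, build GRCm38.p6, the assembly of mm10) were searched for both motifs on both strands. Of 29 such windows of the 20 glycolysis genes with data, 23 (79.3%) held a motif, against 58.1% of 6492 windows of tested genes and 38.6% of all 32851 windows. For genes that were higher by 1 or more in Hilpda-listing cells (defined below) the share was 53.3% of 351 windows. ACGTG is also the end of the E-box CACGTG, which 10.3% of the glycolysis windows and 9.10% of the windows of tested genes held. Windows of the same gene can overlap, so that a motif can be counted more than once, as in Aldoa and Eno1. The shares are of windows, not of genes. A match is a description of the letters, not a bound site. Of the 6590 genes tested, 5059 had a window. The windows of 3 genes that were higher in Hilpda-listing cells are shown because they differ in motif content, with motifs in capitals. Pgk1, a glycolytic kinase gene, has 2 ACGTG motifs. Bnip3, a gene of mitochondrial turnover, has 2 ACGTG motifs, which are the 2 strands of 1 E-box, and 3 GCGTG motifs. Gpi1, the gene of glucose-6-phosphate isomerase, has 0 in this window.
Pgk1, chrX:106186850-106187099, plus strand: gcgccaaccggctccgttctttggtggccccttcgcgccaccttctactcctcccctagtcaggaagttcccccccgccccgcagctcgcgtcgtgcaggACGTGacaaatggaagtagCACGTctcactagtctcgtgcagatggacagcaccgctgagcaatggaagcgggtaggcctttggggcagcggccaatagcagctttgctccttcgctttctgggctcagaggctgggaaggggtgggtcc
Bnip3, chr7:138909507-138909756, minus strand: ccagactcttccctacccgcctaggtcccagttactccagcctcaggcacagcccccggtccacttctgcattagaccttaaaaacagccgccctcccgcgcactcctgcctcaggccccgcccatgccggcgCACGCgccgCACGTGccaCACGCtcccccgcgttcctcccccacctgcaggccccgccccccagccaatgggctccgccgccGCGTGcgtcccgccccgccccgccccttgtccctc
Gpi1, chr7:34230337-34230586, minus strand: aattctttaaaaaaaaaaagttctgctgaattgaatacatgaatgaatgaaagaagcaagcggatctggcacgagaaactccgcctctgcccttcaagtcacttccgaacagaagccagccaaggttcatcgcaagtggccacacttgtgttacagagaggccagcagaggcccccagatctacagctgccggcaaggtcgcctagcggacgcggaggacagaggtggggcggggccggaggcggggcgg

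Hilpda-listing cells were spread over all 3 stretches of consecutive sample numbers that hold regression cells. They made up 13 of 20 cells numbered 1 to 20 (65.0%, exact 95% interval 40.8 to 84.6%), 8 of 18 cells numbered 93 to 111 (44.4%, interval 21.5 to 69.2%) and 39 of 75 cells numbered 168 to 244 (52.0%, interval 40.2 to 63.7%). The intervals overlap, and all intervals of shares given here cover counting error only. At baseline, 15 of 125 cells listed Hilpda (12.0%, interval 6.87 to 19.0%). The labels do not say what a stretch stands for.

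Hilpda-listing cells had more genes detected. The lowest, median and highest cell had 1142, 2473 and 4119 genes listed, against 1244, 2262 and 4008 in the other cells. Hilpda-listing cells made up 10 of the 29 cells with the fewest genes (34.5%, interval 17.9 to 54.3%) and 19 of the 28 with the most (67.9%, interval 47.6 to 84.1%). In cells 168 to 244 the medians were 2654 and 2181.5 genes, whereas in cells 1 to 20 they were 2668 and 2670. Ribosomal protein genes held a median of 12.0% of summed RPKM in Hilpda-listing and 12.9% in other cells, and mitochondrial genes 8.04% and 8.13%. The depth of each library is unknown, so that a gene at 0 may be a gene missed. Differences are therefore given as measured and also from a linear fit with stretch and the log2 number of genes detected as terms, called adjusted below.

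**Figure D1:**
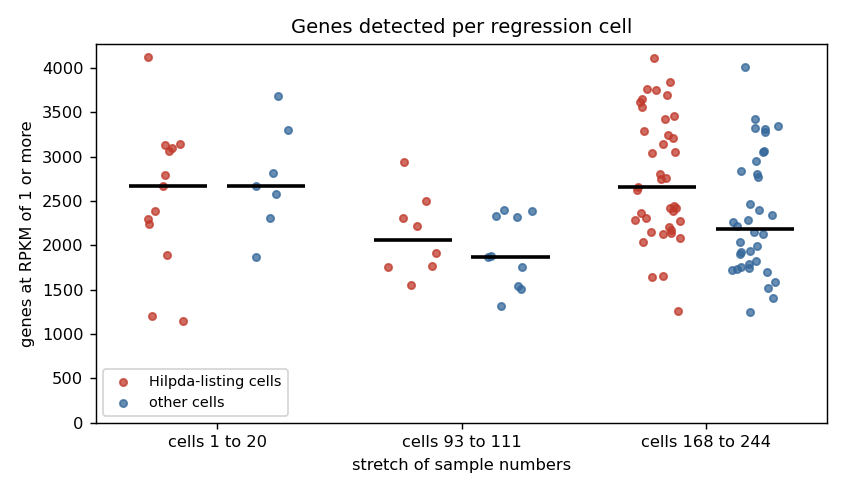
Number of genes listed (vertical axis) in each regression cell, by stretch of sample numbers (horizontal axis) and class, with bars at medians. Hilpda-listing cells lie higher in cells 168 to 244 (medians 2654 and 2181.5) and level with the others in cells 1 to 20 (2668 and 2670).

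The label of these cells rests on Vegfa and Hif1a beside Hilpda, and they bore it out in part. Vegfa, the gene of the main angiogenic growth factor (chromosome 17, 46016993 to 46032369, mm10), stood at log2(RPKM + 1) of 0, 3.46 and 9.33 in the lowest, median and highest Hilpda-listing cell and at 0, 0.90 and 8.25 in the others. It was listed in 38 of 60 cells (63.3%, interval 49.9 to 75.4%) and 26 of 53 cells (49.1%, interval 35.1 to 63.2%). The means were 3.49 ± 3.09 (SD over 60 cells) and 2.04 ± 2.40 (SD over 53 cells), a difference of 1.45 (adjusted 1.40). The difference was 2.28 in cells 1 to 20 and 1.58 in cells 168 to 244, but -0.10 in cells 93 to 111. Hif1a was listed in nearly the same share of both classes, 51 of 60 (85.0%) and 44 of 53 cells (83.0%). Its means were 5.43 ± 2.90 and 4.84 ± 3.13, a difference of 0.59 (adjusted 0.49), which was -1.48 in cells 93 to 111 and -0.05 without cells 168 to 244. Both genes together were listed in 34 Hilpda-listing cells (56.7%, interval 43.2 to 69.4%) and 23 other cells (43.4%, interval 29.8 to 57.7%). The transcript of Hif1a thus did not separate the classes, and cells 93 to 111 carried neither marker at a higher level.

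**Figure D2:**
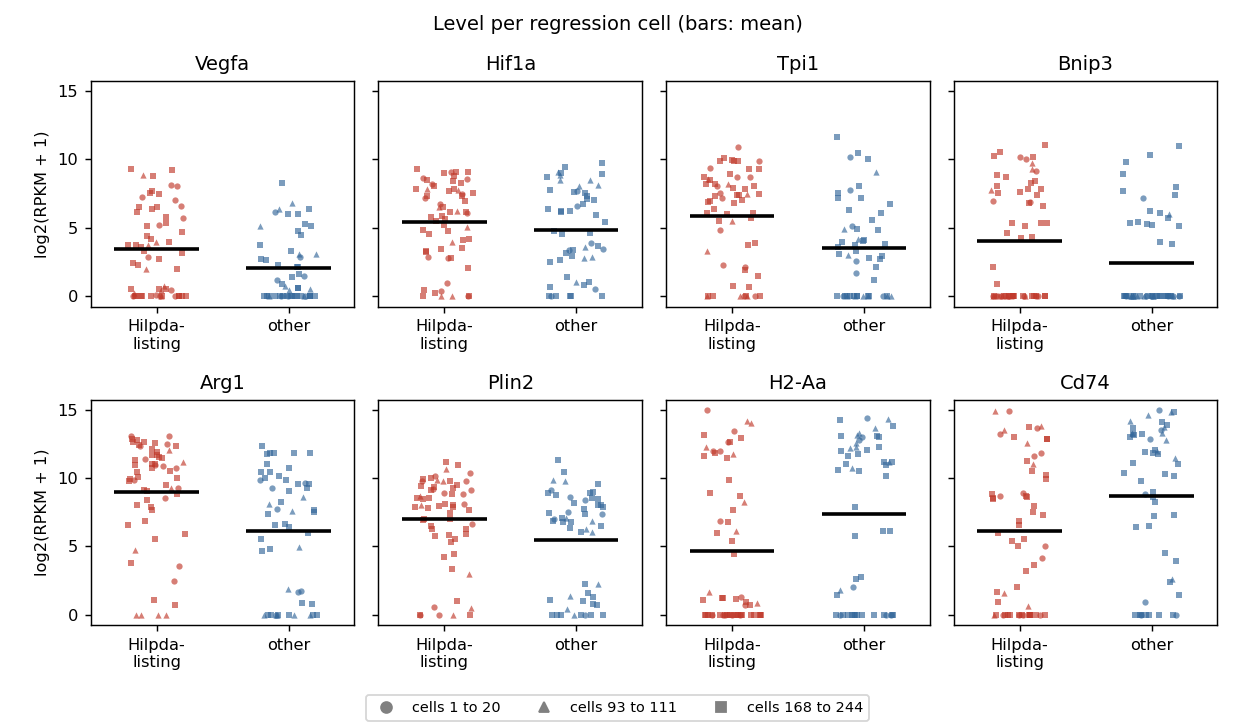
Level as log2(RPKM + 1) (vertical axis) of 8 genes in each Hilpda-listing (60) and other (53) regression cell, with bars at means and marker shapes for the stretches of sample numbers. Every gene spans both classes. Vegfa, Tpi1, Bnip3, Arg1 and Plin2 have the higher mean in Hilpda-listing cells, H2-Aa and Cd74 the lower, and Hif1a differs by 0.59.

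Across all genes the classes overlapped. Of 6590 genes listed in 10% or more of the regression cells (Hilpda left out), 0 had classes whose values did not overlap. The mean was higher by 1 or more on the log2(RPKM + 1) scale in Hilpda-listing cells for 363 genes (5.51%) and lower by 1 or more for 49 (0.744%). The median over all genes was 0.17, and 65.7% of them had the higher mean in Hilpda-listing cells. In the adjusted fit these became 153 (2.32%) and 122 (1.85%) genes, with a median of 0.0049, and with genes detected alone as a term 2.53% and 1.82%. Of the 363 higher genes 149 stayed past 1 in the adjusted fit, and of the 49 lower genes 48. The lead of higher over lower genes therefore shrank once genes detected was a term. Without cells 168 to 244, which leaves 38 cells, the counts were 750 and 430. The shares higher and lower by 1 or more were 14% and 18.6% within cells 1 to 20, 19.9% and 11.7% within cells 93 to 111, and 9.14% and 1.17% within cells 168 to 244. As log2 ratios of mean RPKM, to which the highest cells contribute most, 1105 genes were higher and 944 lower by 1 or more. With the filter raised from 10% to 25% of cells, 3418 genes remained. Of these, 337 were higher and 48 lower by 1 or more, so nearly all genes past 1 were among the better detected. The shares of 5.51% and 0.744%, used for comparison below, are therefore low marks for lists made up mostly of well detected genes.

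Among the genes of oxygen sensing, Siah2, a ubiquitin ligase that targets the Egln enzymes, passed the 10% filter only through Hilpda-listing cells. Its counts and difference are therefore partly set by that filter and support nothing further. Siah2 was listed in 14 of 60 Hilpda-listing cells (23.3%, interval 13.4 to 36.0%) and 0 of 53 other cells (a count of 0 here leaves room for up to 5.66%). Its difference was 1.24 (adjusted 1.22), and 0.84 without cells 168 to 244. At baseline it was listed in 1 of 15 Hilpda-listing and 11 of 110 other cells. Egln1, the main oxygen-sensing hydroxylase, was listed in 27 and 10 cells and differed by 0.85 (adjusted 0.74), with the higher mean in Hilpda-listing cells in all 3 stretches. Egln3, a hydroxylase that is itself a HIF target, was listed in 5 and 7 cells (-0.14, but 0.31 as a log2 ratio of mean RPKM). Of 13 genes in this list 9 were tested. Of these 2, Siah2 among them, were higher by 1 or more and 0 lower, against 5.51% and 0.744% of all tested genes. Only 6 of the 9 had the higher mean in Hilpda-listing cells, where 65.7% of all tested genes did. Beside Egln3, the members with the lower mean were Egln2 (-0.54, adjusted -0.70) and Arnt (-0.30, adjusted -0.38). The list median was 0.45 (adjusted 0.42, and 0.30 without cells 93 to 111). The second gene past 1 was Pkm, the pyruvate kinase gene, which the glycolysis list also holds.

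Among genes of glucose uptake and glycolysis, 17 of 20 tested members (of 24) had the higher mean in Hilpda-listing cells, where 65.7% of all tested genes did. Of the 20, 7 were higher by 1 or more and 0 lower, against 5.51% and 0.744% of all tested genes. The median difference was 0.60 (adjusted 0.30, with 4 members past 1). The 25% filter, under which 337 of 3418 genes were higher by 1 or more, kept 14 of the 20. The contrast with 5.51% is therefore partly one of detection. Tpi1, the gene of triosephosphate isomerase (chromosome 6, 124810586 to 124814296, mm10), led the list. It stood at 0, 7.11 and 10.90 in the lowest, median and highest Hilpda-listing cell and at 0, 3.12 and 11.66 in the others, and was listed in 49 of 60 and 35 of 53 cells. Its means were 5.89 ± 3.46 and 3.52 ± 3.36, a difference of 2.36 (adjusted 2.04) that ranged from 2.02 to 2.32 over the 3 stretches. Both classes held cells without Tpi1, their ranges overlapped, and the median Hilpda-listing cell lay well above the median other cell.

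Other enzymes of the pathway had smaller differences. Gpi1, which acts before Tpi1, differed by 1.63 (adjusted 1.50) and was above 1 in each stretch. Pkm differed by 1.60 (adjusted 1.36), but by -0.39 in cells 93 to 111 and by 0.61 without cells 168 to 244. Pgk1 (1.27), the aldolase gene Aldoa (1.22), the phosphofructokinase gene Pfkl (1.19) and the enolase gene Eno1 (1.14) complete the 7, of which Pgk1 was lower in cells 1 to 20 (-0.61) and Eno1 came to 0.24 in the adjusted fit. Ldha, which makes lactate, differed by 0.85 (adjusted 0.28), and Gapdh, listed in every cell, by 0.35. Genes of glucose entry and of the regulation of phosphofructokinase stayed under 1. The glucose transporter gene Slc2a1 differed by 0.64, the hexokinase gene Hk2 by -0.28 (adjusted -0.88), and Pfkfb3 and Pfkfb4, whose enzymes set the activator of phosphofructokinase, by 0.28 and -0.23 (0.53 for Pfkfb4 as a log2 ratio of mean RPKM). A Hilpda-listing cell listed between 2 and 16 of the 20 genes (median 11), another cell between 3 and 17 (median 10). Among cells with more than 2360 genes detected, both medians were 12.

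Hypoxia-induced genes outside glycolysis varied. Their counts are to be read against 5.51% of all tested genes higher by 1 or more and 0.744% lower. Among genes of secreted factors and of the secretory pathway, 6 of 14 were tested and 2 were higher by 1 or more, Vegfa and Mif, a cytokine gene (1.32, adjusted 0.86, -0.92 in cells 93 to 111). Their median was 0.59 (adjusted 0.37). It was 0.19 within cells 1 to 20, -0.05 within cells 93 to 111 and 0.68 within cells 168 to 244. Without cells 93 to 111 it was 0.47. It was 1.07 to 1.08 without cells 1 to 20 or 168 to 244, where only 5 of the genes passed the filter. In the adjusted fit 1 of the 6 genes was past 1. Ero1l, an oxidase of protein folding, differed by 0.86 and P4ha1, a collagen hydroxylase, by 0.19 (-0.36 as a log2 ratio of mean RPKM). Among genes with products inside the cell, 10 of 14 were tested and 2 were higher by 1 or more. Their median was 0.28 (adjusted 0.13, and 0.50 without cells 168 to 244, where 8 genes passed the filter). Bnip3 was listed in 32 of 60 (53.3%) and 19 of 53 cells (35.8%), with means of 4.06 ± 4.11 and 2.43 ± 3.50. Its difference of 1.63 (adjusted 1.54) was between 1.24 and 2.74 in the 3 stretches and 2.56 without cells 168 to 244. Mxi1, a Myc antagonist, was listed in 23 and 10 cells and differed by 1.32 (adjusted 1.14). Bnip3l (0.52), the histone demethylase gene Kdm3a (0.28) and Ndrg1 (-0.16) lay closer to the median of all genes.

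Over the 3 lists of hypoxia-induced genes together, 36 of 52 genes were tested. Of these, 11 (30.6%) were higher by 1 or more and 0 were lower by 1 or more, against 5.51% and 0.744% of all genes tested. In the adjusted fit 7 (19.4%) were past 1, against 2.32%. The higher mean was found in all 3 stretches for 14 of the 36 genes (38.9%) and for 16.6% of all genes tested. The members of these lists were chosen with earlier results of these data known, so the shares describe the lists and support nothing further. The median Hilpda-listing cell listed 19 of the 36 genes (range 5 to 28) and the median other cell 16 (range 6 to 28).

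Among lipid droplet genes, Plin2 and Fabp5 had the highest differences. Of 13 tested members (of 25) 3 were higher by 1 or more and 0 lower, against 5.51% and 0.744% of all tested genes. In the adjusted fit 1 member, Fabp5 (1.41), was past 1. The list median was 0.31 (adjusted 0.21), from 0.09 to 0.86 with a stretch left out. Plin2, which coats lipid droplets, stood at 0, 7.98 and 11.17 in the lowest, median and highest Hilpda-listing cell and at 0, 6.89 and 11.30 in the others. It was listed in 52 of 60 and 42 of 53 cells and differed by 1.48 (adjusted 0.98, and 0.99 without cells 168 to 244). In cells 1 to 20 the Plin2 means of both classes lay close together. The fatty acid carrier gene Fabp5 differed by 1.40, but by -2.34 in cells 93 to 111, by 2.12 without these and by -0.31 without cells 168 to 244. The scavenger receptor genes Msr1 and Cd36 differed by 1.09 and 0.91. Pnpla2, whose product the Hilpda protein inhibits, was listed in 15 and 7 cells (0.44, but -0.16 as a log2 ratio of mean RPKM), and its coactivator gene Abhd5 in 9 and 4 (0.31). Among genes of cholesterol efflux, 0 of 11 were past 1 in either direction (median 0.07, and -0.69 without cells 168 to 244 or -0.21 as a log2 ratio of mean RPKM). The exporter genes Abca1 and Abcg1 differed by 0.88 (-0.79 without cells 168 to 244) and -0.41, and Apoe by -0.57.

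The 12 genes with the highest differences, taken by a rule that required the same sign in each stretch, in cells with up to 2360 genes detected and in those with more, were led by Arg1. Arg1, the gene of the enzyme that splits arginine into ornithine and urea (gene 11846, chromosome 10, 24915221 to 24927484, mm10), stood at 0, 10.25 and 13.06 in the lowest, median and highest Hilpda-listing cell and at 0, 7.48 and 12.37 in the others. It was listed in 55 of 60 cells (91.7%, interval 81.6 to 97.2%) and 39 of 53 cells (73.6%, interval 59.7 to 84.7%). Means were 8.98 ± 3.82 and 6.14 ± 4.39, a difference of 2.84 (adjusted 2.52) that was 4.19, 1.54 and 2.50 in cells 1 to 20, 93 to 111 and 168 to 244. Over all regression cells Arg1 was thus found in most cells of both classes and was lower, or at 0, in more of the other cells. Within cells 93 to 111, several cells of both classes had Arg1 at 0. The rest of the arginine and polyamine list did not follow. Arg1 was the 1 of 9 tested members past 1, where 5.51% of all tested genes were higher by 1 or more. The list median was 0.23 (adjusted -0.15, and -0.19 without cells 1 to 20). Odc1, which makes polyamines from ornithine, differed by 0.23.

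The other 11 were Dstn, an actin-severing protein (2.73), Creg1, a lysosomal glycoprotein (2.38), Tpi1, the respiratory complex I subunits Ndufb6 (2.26) and Ndufa1 (2.09), the proteasome subunits Psmb3 (2.20) and Psmb6 (2.06), Saa3 (2.15), Clec4d (2.10), Erh (2.06) and Atp6v1g1, a subunit of the vesicular proton pump (2.04). Adjusted differences of these genes ran from 1.62 (Psmb6) to 2.50 (Saa3). Several of them have short transcripts. The median transcript length was 741.25 bases for the 12 genes, 910 bases for the 363 higher genes and 1220 bases for all tested genes (GENCODE M21). Of 1587 genes with transcripts of up to 763 bases 8.00% were higher by 1 or more, and of 1586 genes with 2243 bases or more 3.15%. In the adjusted fit these shares were 3.59% and 1.39%. The part of transcript length in these differences was not tested.

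**Figure D3:**
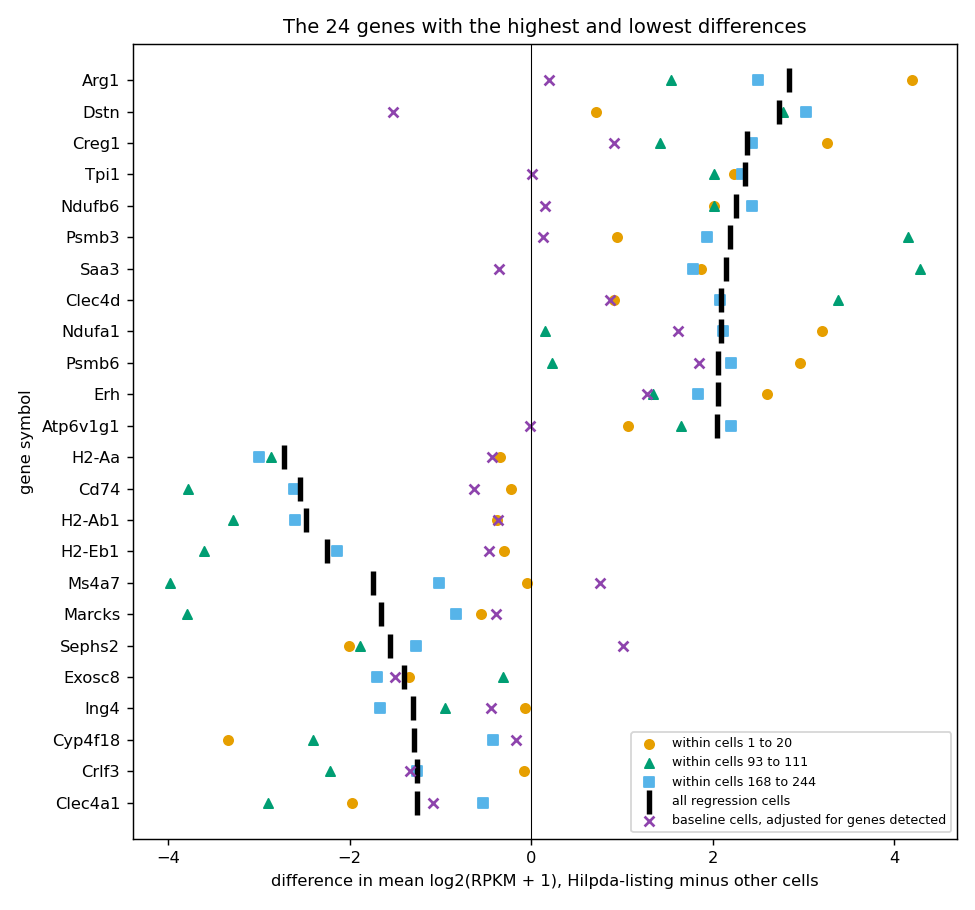
Difference in mean log2(RPKM + 1) between Hilpda-listing and other cells (horizontal axis) for the 12 highest and 12 lowest genes (vertical axis), over all regression cells, within each stretch, and in baseline cells adjusted for genes detected. Signs agree over the stretches because the rule asked for it. In cells 1 to 20 the class II genes lie between -0.37 and -0.22, and the baseline values of Dstn (-1.52), Sephs2 (1.01) and Ms4a7 (0.75) are among those with the opposite sign.

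Among genes of matrix and tissue remodelling, Ecm1, Adam8 and Thbs1 had the highest differences. Of 15 tested members (of 18) 6 were higher by 1 or more and 0 lower, against 5.51% and 0.744% of all tested genes, with a median of 0.58 (adjusted 0.38, 3 past 1). Ecm1, a matrix glycoprotein, differed by 1.8 (adjusted 1.74), the membrane protease Adam8 by 1.62, the matrix glycoproteins thrombospondin 1 (Thbs1) by 1.54 and fibronectin (Fn1) by 1.36, the urokinase receptor Plaur by 1.30 and the coagulation factor gene F10 by 1.04. Thbs1 was listed in 59 of 60 and 50 of 53 cells, so that nearly every cell of both classes carried it. In cells 1 to 20 the differences of Adam8 (0.07), Fn1 (0.06) and Plaur (-0.99) were at or below 0.07.

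In the inflammatory and acute-phase list 4 of 17 tested members were higher by 1 or more and 0 lower, against 5.51% and 0.744% of all tested genes. The median was 0.36 (adjusted 0.34, and 0.65 over 19 members without cells 168 to 244). Saa3, an acute-phase apolipoprotein, was listed in 34 of 60 (56.7%) and 22 of 53 cells (41.5%), with means of 6.16 ± 5.93 and 4.01 ± 5.45. The alarmin gene S100a8 was listed in 20 of 60 (33.3%) and 7 of 53 cells (13.2%) and differed by 1.87, although by 0.05 in cells 93 to 111. Its partner gene S100a9 was listed in 10 and 9 cells (0.23). The neutrophil-attracting chemokine gene Cxcl2 differed by 1.73 and the NF-kappa-B inhibitor gene Nfkbia by 1.44. Il1b (0.32) and Tnf (0.11), the classical inflammatory cytokine genes, came to -0.26 and -0.89 as log2 ratios of mean RPKM. Among C-type lectin receptors, Clec4d and Clec4n (1.09) were higher and Clec4a1 (-1.26), Clec4a3 (-0.94) and Clec4a2 (-0.72) lower. The list thus went both ways, with 2 of 11 higher by 1 or more and 1 lower, against 5.51% and 0.744% of all tested genes. Its median was 0.21 (adjusted -0.23), from 0.02 to 0.42 with a stretch left out.

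The lowest differences were those of MHC class II, the complex that presents antigen to CD4 T cells. H2-Aa, an alpha chain gene (chromosome 17, 34282744 to 34287823, mm10), stood at 0, 1.17 and 14.98 in the lowest, median and highest Hilpda-listing cell and at 0, 10.58 and 14.38 in the others. Its means were 4.68 ± 5.43 and 7.40 ± 5.71, a difference of -2.73 (adjusted -2.69). Cd74, the invariant chain, differed by -2.54 (adjusted -2.79), H2-Ab1 by -2.48 and H2-Eb1 by -2.25. Each gene was near 0 in some cells of both classes and above 13 in others. All 4 genes were listed in 22 of 60 Hilpda-listing cells (36.7%, interval 24.6 to 50.1%) and 31 of 53 other cells (58.5%, interval 44.1 to 71.9%), and none of the 4 in 11 and 6 cells.

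The class II difference varied with the stretch. All 4 genes were listed in 10 of 39 Hilpda-listing and 19 of 36 other cells numbered 168 to 244, and in 5 of 8 and 9 of 10 cells numbered 93 to 111. In cells 1 to 20 the counts were 7 of 13 and 3 of 7, and the 4 differences lay between -0.37 and -0.22. The other tested members of the list stayed within 1 of 0. H2-DMb1, a subunit of the peptide editor of class II, differed by -0.57 (adjusted -0.97, but 0.04 as a log2 ratio of mean RPKM). Ctss, the protease that trims the invariant chain, was listed in every cell and differed by -0.11, the costimulatory genes Cd80, Cd86 and Cd40 by 0.07 to 0.32, and H2-DMa by 0.11 (adjusted -0.53; as log2 ratios of mean RPKM Cd86 came to -0.69 and H2-DMa to -0.79). Of 10 tested members 4 were lower by 1 or more and 0 higher, against 0.744% and 5.51% of all tested genes. The list's median was -0.34 (adjusted -0.75, where 1 of the 10 members lay above 0), and it was -0.59 without cells 93 to 111.

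The other 8 of the 12 lowest genes included Ms4a7, a membrane protein of macrophages (-1.74), Marcks, a substrate of protein kinase C (-1.66), and Sephs2, an enzyme of selenoprotein synthesis (-1.55). Exosc8 (-1.40), Ing4 (-1.30), Cyp4f18 (-1.29), Crlf3 (-1.26) and Clec4a1 followed. Without cells 168 to 244 these differences changed by a factor of over 1.5 for Ms4a7 (-2.95), Marcks (-3.13), Exosc8 (-0.75) and Ing4 (-0.57). The same held for Cyp4f18 (-3.03) and Clec4a1 (-2.74), and without cells 1 to 20 for Cyp4f18 (-0.84). Without cells 93 to 111 the difference of Clec4a1 was -0.86.

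In the further lists, 0 to 3 members were higher by 1 or more, to be read against 5.51% of all tested genes. Of all tested genes 0.744% were lower by 1 or more. The 25% filter kept all 15 lysosome and 14 of 15 oxidative phosphorylation genes, so these shares are low marks for both lists. Lipid-laden macrophage genes had 3 of 12 higher (median 0.55, adjusted 0.45, and 0.16 without cells 168 to 244), led by the tetraspanin gene Cd9 (1.76, and 3.05 without cells 168 to 244) with Plin2 and Fabp5. Trem2, the receptor that marks these cells, differed by 0.17. Lysosome genes had 1 of 15 higher, Lamp2 (1.24, from 0.78 to 2.64 with a stretch left out), with a median of 0.63 (adjusted 0.30), which was -0.11 without cells 168 to 244. Oxidative phosphorylation had 2 of 15 higher, the ATP synthase genes Atp5b (1.12) and Atp5a1 (1.05), with a median of 0.50 that came to 0.02 in the adjusted fit and lay from 0.29 to 0.44 with a stretch left out. Atp5a1 differed by -0.30 without cells 168 to 244 and by 1.58 without cells 1 to 20. Iron and oxidative stress genes had 2 of 11 higher, the metallothionein genes Mt1 (1.35, and 2.32 without cells 168 to 244) and Mt2 (1.15, and 0.87 without them), with a median of 0.41, or 0.70 without cells 1 to 20. Resident and alternatively activated macrophage genes had 1 of 10 higher, the platelet factor gene Pf4 (1.35, from 0.80 to 2.96 with a stretch left out), and 1 lower, Cbr2 (-1.01, and -0.85 without cells 1 to 20), with a median of 0.19 (adjusted -0.24, and -0.07 as a log2 ratio of mean RPKM). Of the dissociation stress genes, which tissue digestion can induce, 1 of 13 was higher (Ier3, 1.85; median 0.39, adjusted 0.18, and 0.14 without cells 168 to 244). In the endoplasmic reticulum stress list 1 of 10 was lower by 1 or more (Herpud1, -1.07, from -1.27 to -0.91 with a stretch left out; median 0.62, adjusted 0.17). Interferon response genes (5 tested, median 0.13, from 0.10 to 0.37 with a stretch left out) and cell cycle genes (5 tested, median 0.17, from -0.13 to 0.21) had 0 past 1. Of the sorted antigens, Itgam (CD11b) differed by 1.31, Ptprc (CD45) by 0.34 (-0.25 without cells 168 to 244) and Adgre1 (F4/80) by -0.24. Ribosomal protein genes had a median of 0.23 (from 0.07 to 0.60 with a stretch left out), with 0 of 76 higher by 1 or more and 1 lower. Of 15 genes of the mitochondrial genome 1 was higher and 0 lower by 1 or more, with a median of -0.14 (from -0.66 to -0.06).

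**Figure D4:**
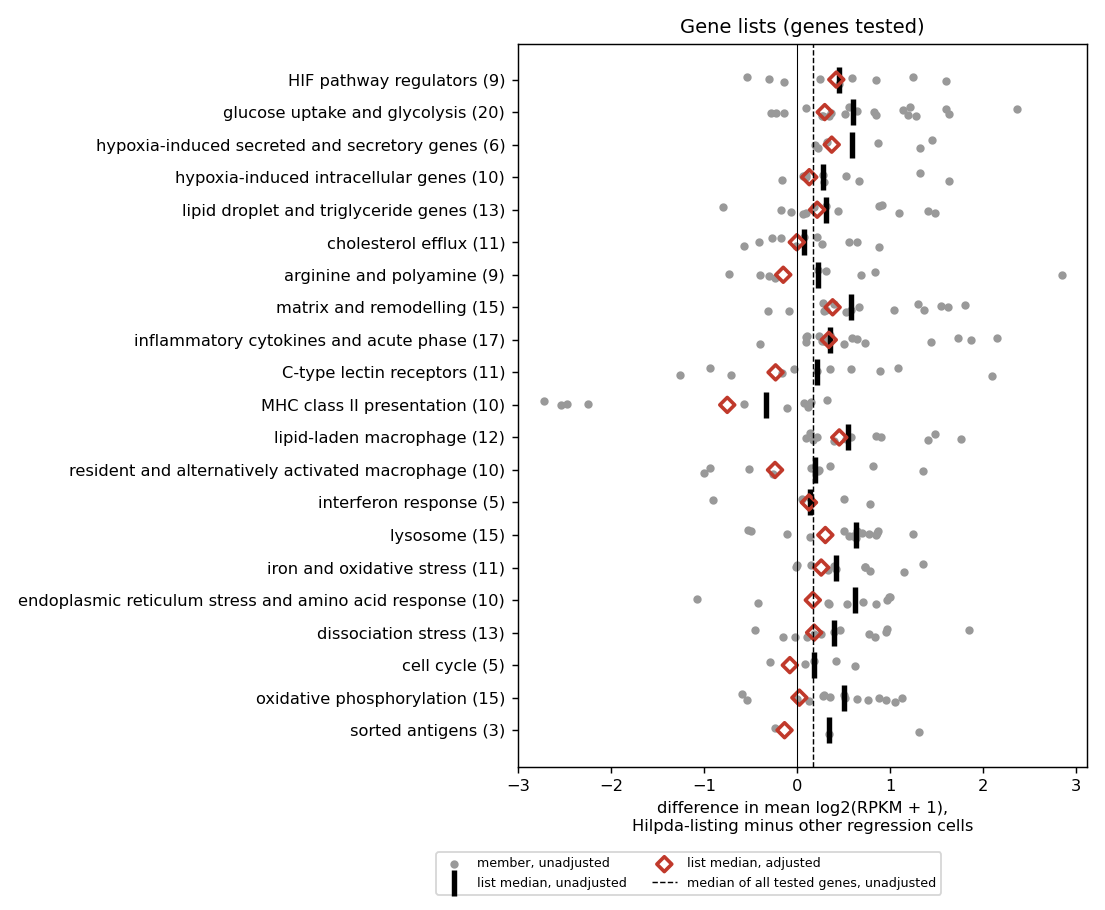
Differences in mean log2(RPKM + 1), Hilpda-listing minus other regression cells (horizontal axis), for the tested members of 21 gene lists (vertical axis), with list medians as measured (bars) and adjusted for stretch and genes detected (diamonds). The dashed line marks the median of all tested genes, 0.17. Glycolysis members reach 2.36 and the 4 class II genes lie between -2.73 and -2.25.

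Markers of cell types were counted in both classes. At least 3 of 7 macrophage markers were listed in 58 of 60 Hilpda-listing and 52 of 53 other cells. At least 3 of 6 classical monocyte markers were listed in 27 (45.0%, interval 32.1 to 58.4%) and 17 cells (32.1%, interval 19.9 to 46.3%), and nonclassical monocyte markers in 1 and 2 cells. At least 3 of 8 neutrophil markers were listed in 11 Hilpda-listing (18.3%, interval 9.52 to 30.4%) and 3 other cells (5.66%, interval 1.18 to 15.7%). Their summed RPKM ran from 0 to 29863 (median 13.7) and from 0 to 1746 (median 8.55), while Retnlg, Ly6g, Mpo and Ngp were listed at 0 in every regression cell. S100a8 and S100a9 are themselves among the 8 markers, so these counts partly restate the S100a8 difference. The part of cells with neutrophil markers in that difference was not tested. No regression cell kept listed 3 markers of dendritic, T, B, NK, mast, smooth muscle, endothelial, fibroblast or adipocyte cells, platelets or erythroid cells (counts of 0 that leave room for up to 5% and 5.66% of the 2 classes), and all 5 adipocyte markers were at 0.

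The same split was made in baseline cells, which the rule had not used. The 15 baseline cells that listed Hilpda had a median of 3151 genes detected, against 2459 in the other 110. Of the 6590 genes, 18.3% were higher by 1 or more in them and 0.941% lower, and with genes detected as a term 8.3% and 4.42%. With that term, 3 of the 36 hypoxia-induced genes (8.33%) were higher by 1 or more, near the share of all genes, and their median was 0.026. Pgk1 differed by 2.26, Vegfa by 0.36, Tpi1 by 0.01 and Bnip3 by -0.92. Arg1 differed by 0.20 and Saa3 by -0.35, both rare at baseline. The class II genes H2-Aa (-0.43) and Cd74 (-0.63) were lower by less than 1, whereas Il1b was higher by 2.82. In the inflammatory list 7 of 17 members were higher by 1 or more (median 0.52). Without that term Tpi1 differed by 1.14, Bnip3 by -0.33, Arg1 by 0.27 and the 4 class II genes by 0.03 to 0.14. Dstn, the second highest gene in regression cells, differed by -0.72 at baseline, and by -1.52 with the term. The 15 cells allow only coarse values, and the difference between the groups was not tested.

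Hilpda-listing cells crossed other marked regression cells. Saa3 was listed in 56 regression cells, 34 of which listed Hilpda (60.7% of these cells and 56.7% of the Hilpda-listing cells). Of 84 cells with Cd74, 41 listed Hilpda (48.8%), and of 56 cells with Abcg1, 31 did (55.4%), beside 53.1% of all regression cells.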

How the data were processed

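Single-cell RNA of sorted aortic arch macrophages was captured on a Fluidigm C1 chip, with cDNA from a SMARTer Ultra Low RNA kit and Nextera XT libraries, per the labels' protocols, which speak of islet cells where all other labels say macrophages. The authors deposited RPKM values for 24475 genes and 244 libraries. The submitters' processing notes name mm10, CASAVA 1.8.2 and FastQC. The aligner, annotation and RPKM program are not stated there. Without molecular identifiers, noise of cDNA amplification remains in the values.

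Columns were matched to samples by the number in the title. Baseline libraries whose log2 values correlated above 0.9 (3 pairs) were averaged, and no 2 regression libraries exceeded 0.649. Values were compared as log2(RPKM + 1), which understates differences of low genes, as the mean over Hilpda-listing minus the mean over other regression cells, for genes listed in 10% or more of the 113 regression cells, after 3 cells with under 1000 genes were dropped. RPKM is not a count, so no count model was used, and no test was made from cells. Intervals of shares are exact (Clopper-Pearson, 95%), and the limit for a count of 0 is 3 cells of the class. Doublets were not called, since callers need counts. The adjusted fit was least squares with class, stretch and log2 genes detected. The method was run on simulated data, in which each gene's values were shuffled over cells and known changes were added. Shuffling removes the tie of a gene to genes detected and stretch, so the run could not test the adjustment.

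The genes named were the 12 highest and 12 lowest differences among genes listed in at least 25% of the regression cells, with 1 sign in each stretch, in cells with up to 2360 genes detected, in those with more, and as a log2 ratio of mean RPKM. Predicted genes, genes named for clones, antigen receptor segments, Y-linked genes, Xist and Rn45s were not eligible. Vegfa, Hif1a and the 2 largest members of each list were added, and further list members are examples picked with their values known. The members, the 21 gene lists and the 15 cell type lists were chosen with earlier results of these data known. In all, 15 other settings were computed. Python 3.11.15, numpy 2.4.6, pandas 2.3.3, scipy 1.17.1 and matplotlib 3.10.9 were used.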

Additional observations from a re-analysis of the deposited data

Results flagged for a closer look

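Sephs2, an enzyme of selenoprotein synthesis, differed by -1.55 between Hilpda-listing and other regression cells and by 1.71 between Hilpda-listing and other baseline cells (1.01 with genes detected as a term), so the same split had opposite signs in the 2 conditions. As measured, Ms4a7 (-1.74 and 1.49) and Herpud1 (-1.07 and 1.65) were also past 1 with opposite signs in regression and baseline cells, but with genes detected as a term their baseline values were 0.75 and 0.81. Regression values adjusted for stretch and genes detected were also set beside baseline values with genes detected alone as a term. In these unlike fits Dstn (2.23 and -1.52), Pf4 (1.31 and -1.39) and Itgam (1.06 and -1.41) were past 1 with opposite signs. Their baseline values as measured were -0.72, -0.28 and -0.92. The difference between the conditions was not tested for any of these genes.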

How the results depend on the processing

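No paired analysis was possible because each sample number occurs in 1 group only. The counts of 363 higher and 49 lower genes and the medians of 23 lists were recomputed under 15 settings. Where cells were left out, the 10% filter was applied again to the cells that remained, so the genes tested changed. A value counted as moved when it differed by over 1.5 times (counts) or by more than the SD of the 3 within-stretch differences. This SD is larger where the stretches disagree, so such values are less easily counted as moved. The lipid droplet median of 0.31, for example, was 0.09 without cells 93 to 111 and 0.86 without cells 168 to 244. Neither value counted as moved. Counts moved in 15 of 30 cases, list medians in 64 of 345 and named genes in 85 of 767, and 2 differences of named genes past 1 changed sign, both without cells 168 to 244, Fabp5 (-0.31) and Atp5a1 (-0.30). The values that moved for the counts and the lists of the main paragraphs were these. With a pseudocount of 10, 60 genes were higher by 1 or more and 7 genes were lower by 1 or more, and medians were 0.17 (HIF regulators), 0.32 (glycolysis) and 0.12 (intracellular). With a pseudocount of 0.1, 1035 genes were higher by 1 or more and 154 genes were lower by 1 or more, and medians were 0.70 (HIF regulators), 0.99 (glycolysis), 1.01 (secreted), 0.53 (intracellular) and 0.58 (inflammatory). With no filter beyond 1 cell, medians were 0.24 (HIF regulators), 0.21 (secreted) and 0.10 (intracellular). With genes listed in at least 25% of cells, medians were 0.99 (glycolysis), 0.40 (intracellular) and -1.41 (MHC class II). In cells with at least 2000 genes, 178 genes were lower by 1 or more, and medians were 0.17 (HIF regulators) and 0.16 (intracellular). With a member threshold of 10 RPKM, medians were 0.42 (intracellular) and 0.56 (inflammatory). As log2 ratios of mean RPKM, 1105 genes were higher by 1 or more and 944 genes were lower by 1 or more, and the median was 0.35 (intracellular). With genes detected as a term, 167 genes were higher by 1 or more and 120 genes were lower by 1 or more, and medians were 0.36 (glycolysis) and 0.20 (intracellular). Averaged within 4 groups of cells by genes detected, 175 genes were higher by 1 or more and 134 genes were lower by 1 or more, and medians were 0.34 (glycolysis) and 0.15 (intracellular). With stretch and genes detected as terms, 153 genes were higher by 1 or more and 122 genes were lower by 1 or more, and medians were 0.30 (glycolysis) and 0.13 (intracellular). Without cells 1 to 20, medians were 1.07 (secreted) and 0.38 (intracellular). Without cells 168 to 244, 750 genes were higher by 1 or more and 430 genes were lower by 1 or more, and medians were 1.08 (secreted), 0.50 (intracellular) and 0.65 (inflammatory). The cause of these shifts was not tested. Read depth is not part of the files, so how far missed genes limit the shares is unknown.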
